A study of Mus musculus with 15 samples.

Results

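The 6 RNA-binding proteins described here shorten the life of messenger RNAs, and their transcripts were followed through lymphocyte activation: Zfp36, Zfp36l1 and Zfp36l2 of the tristetraprolin family, Zc3h12a (Regnase-1), and Rc3h1 and Rc3h2 (Roquin-1 and Roquin-2). All probe sets annotated to exactly 1 of these 6 gene symbols were taken, which gave 16 of the 45037 probe sets other than controls on an Affymetrix mouse array. A probe set is the group of short probes that together measure 1 transcript. Zfp36 and Rc3h1 had 1 probe set each, Zfp36l1 and Zc3h12a had 2 each, Zfp36l2 had 3 and Rc3h2 had 7.

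The RNA came from spleen cells of B6x129 mice, in 5 groups of 3 arrays. The groups were B cells after 4 h with 25 ug/ml of LPS, which bacteria carry and Toll-like receptor 4 senses, and resting B cells at 0 h. The T cells were resting at 0 h, or had been kept for 4 h or 14 h with 7.5 ug/ml of ConA, a lectin that cross-links surface glycoproteins of T cells. No group was cultured without stimulus, so that the effects of LPS or ConA and of culture cannot be told apart. The labels do not say whether replicates came from separate animals or cultures, and p-values measure only the spread between these arrays, which may be technical.

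The tristetraprolin proteins bind AU-rich elements in the 3′ untranslated region of short-lived messages and bring in the CCR4-NOT complex, which removes the poly(A) tail. Zc3h12a is an endonuclease that cuts stem-loop structures in such regions, and the Roquins bind similar stem-loops and also recruit CCR4-NOT. In mouse lymphocytes these factors restrain messages of cytokines, costimulatory receptors and cell cycle genes, and their own activity is set by p38 signalling, by IKK and by the protease Malt1.

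The stretch just upstream of the annotated start is shown for 3 of the genes that have such an entry in the RefSeq table and whose levels contrasted, Zfp36 (lower after LPS), Zfp36l1 (higher after both stimuli) and Zc3h12a (higher after both, most after LPS). Each is 250 bases long, read 5′ to 3′ on the gene's own strand, from RefSeq (GRCm38.p6). Capitals mark the CArG box in Zfp36 (the letters that serum response factor is known to bind), the AP-1 motif TGANTCA in Zfp36l1, and the GC boxes GGGCGG or CCGCCC in Zc3h12a.
Zfp36, chr7:28379229-28379478, minus strand: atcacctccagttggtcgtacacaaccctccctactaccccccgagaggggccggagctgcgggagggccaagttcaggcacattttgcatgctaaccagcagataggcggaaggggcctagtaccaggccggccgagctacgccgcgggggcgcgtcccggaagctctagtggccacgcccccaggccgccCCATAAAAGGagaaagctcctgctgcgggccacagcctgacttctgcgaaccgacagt
Zfp36l1, chr12:80113014-80113263, minus strand: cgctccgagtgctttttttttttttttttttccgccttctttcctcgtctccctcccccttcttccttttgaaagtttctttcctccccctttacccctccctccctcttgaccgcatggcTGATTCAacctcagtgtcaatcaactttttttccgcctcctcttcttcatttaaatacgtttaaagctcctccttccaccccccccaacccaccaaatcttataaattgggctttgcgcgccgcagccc
Zc3h12a, chr4:125127882-125128131, minus strand: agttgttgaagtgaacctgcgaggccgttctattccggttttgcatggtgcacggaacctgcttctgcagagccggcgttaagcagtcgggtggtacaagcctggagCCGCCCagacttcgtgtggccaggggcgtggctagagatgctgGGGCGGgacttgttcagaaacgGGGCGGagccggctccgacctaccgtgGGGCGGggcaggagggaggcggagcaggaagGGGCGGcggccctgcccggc

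On both strands, 8 motifs were searched in the 250 bases before an annotated start of 5 of the 6 genes, and the Zfp36l2 window was not analysed here. For Rc3h2 that start lies inside the span of the gene given below, so its window is not the stretch before the gene's outermost start. The CArG box lay 58 to 49 bases before the start of Zfp36 and in 1 of 5 windows, against 1.47% of 32851 mouse promoters. It shares 1 base with a GC box on the opposite strand, 63 to 58 bases before the start. AP-1 letters lay 129 to 123 bases before the start of Zfp36l1 and 133 to 127 bases before that of Rc3h1, or in 2 of 5 windows against 6.75% of all promoters. GC boxes occurred in 3 of 5 windows, against 32.7% of all, with 5 in Zc3h12a, 5 in Rc3h1 and 1 in Zfp36. The TATA letters TATAAA were found in Zfp36l1 alone among the 5, 29 to 24 bases before its start, against 12.4% of all promoters. No window held the CRE TGACGTCA (1.55% of all), its shorter form TGACG (17.8%), the E-box CACGTG (6.02%) or the NF-kappaB consensus (9.55%). A match says only that the letters are present, and its absence only that they are not in these bases.

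The authors deposited log2 signals from GCRMA, which run from a floor at 2.24 to 15.9. A probe set was tested where its highest group mean was at least 5, which held for 19124 probe sets and for 12 of the 16. Calls were made with limma at a Benjamini-Hochberg adjusted p under 0.05 over all 19124. All 6 genes kept at least 1 tested probe set. Of the 4 not tested, 1451034_at and 1439054_at of Zfp36l2 read 2.24 to 2.25 on every array, and 1420143_at and 1420144_x_at of Rc3h2 had group means of at most 3.41. Levels are read here across groups for 1 probe set at a time, since probe sets differ in brightness.

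Arrays within a group correlated at 0.995 to 0.999 over all probe sets, and arrays of different groups at 0.893 to 0.990. T 0 h replicate 2 and T ConA 4 h replicate 1 stood apart in the dap spike-in, whose 3′ signal exceeded its 5′ signal by 4.59 and 5.94 (log2). The other T arrays gave 1.82 to 2.67 and the B arrays 0.90 to 1.44. The control for 18S ribosomal RNA read 5.53 to 6.62 on B arrays and 9.24 to 11.65 on T arrays. Neither control overlapped between B and T arrays. Where B and T cells are compared, differences of cell type and of preparation cannot be told apart. Xist, the RNA of the inactive X chromosome, averaged 2.35 after LPS against 12.00 in resting B cells, and 12.25, 3.19 and 11.77 in T cells at 0, 4 and 14 h, while the Y-linked Eif2s3y stood at group means of 10.08 to 11.65. The arrays of both 4 h groups thus differed from all others in a sex-linked RNA. Its part in the 4 h comparisons was not tested.

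Marker genes matched the cell type labels. All 9 B cell markers on the array had means of at least 5 in both B cell groups, and their summed linear signal was 32600 to 38400 after LPS, against 101000 to 105000 in B cells at 0 h and 309 to 558 on T arrays. All 10 T cell markers reached 5 in each T cell group, with sums of 38600 to 59100, against 92.3 to 121 on B arrays. B cell markers were themselves lower after LPS in 7 of the 9 tested (median -1.68). Of all tested genes 79.1% changed after LPS, 37.2% higher and 41.9% lower. Markers of monocytes and macrophages were lower after LPS in 7 of the 8 tested of 11 on the array (median -4.51), with sums of 2860 to 3380 after LPS against 6060 to 6140 in B cells at 0 h. Csf1r, C1qa, C1qc and Fcgr1 lay near the floor after LPS, and Itgam and Cd14 lay there in both B cell groups. In a bulk sample fewer cells of a type and less RNA per cell cannot be told apart. Erythroid markers were lower after LPS in 5 of the 5 tested of 6 (sums of 1610 to 1710, against 5130 to 5370 at 0 h) and neutrophil markers in 2 of the 3 tested of 6 (205 to 235 against 1550 to 1860). Dendritic cell markers were higher in 2 and lower in 1 of the 3 tested of 5 (808 to 1050 against 132 to 154). On T arrays the summed neutrophil markers were 300 to 366 at 0 h, 1420 to 2030 at 4 h and 56.6 to 64.7 at 14 h, with 2 of the 3 tested of 6 higher at 4 h and 1 lower, and summed erythroid markers were 5030 to 5320, 264 to 299 and 173 to 189. T cell markers were lower in 6 of the 10 tested at 4 h and in 7 at 14 h, with 1 higher each time. Of all tested genes 32% and 31.3% were lower at these times, and 32.9% and 36% higher. Markers of NK cells summed to 7550 to 7740, 2970 to 3470 and 3460 to 3660, with 3 of the 4 tested of 5 lower at 4 h and at 14 h. The part of any of these cells in the changes below was not tested.

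The 6 genes did not move together after LPS. Zfp36l2 and Zfp36 fell 5.02-fold and 2.95-fold, Zc3h12a rose 4.93-fold on its brighter probe set, Zfp36l1 and Rc3h1 rose by smaller amounts, and the brightest Rc3h2 probe set missed the threshold. Of the 12 tested probe sets 9 changed, against a background of 75.8% of all probe sets, so the share that changed was close to that of the whole array. By direction 6 rose and 3 fell, where 37.6% and 38.2% of all probe sets did, and the median change was 0.28 against -0.00 over all. The plot of levels on each array shows the 12 tested probe sets.

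**Figure D1:**
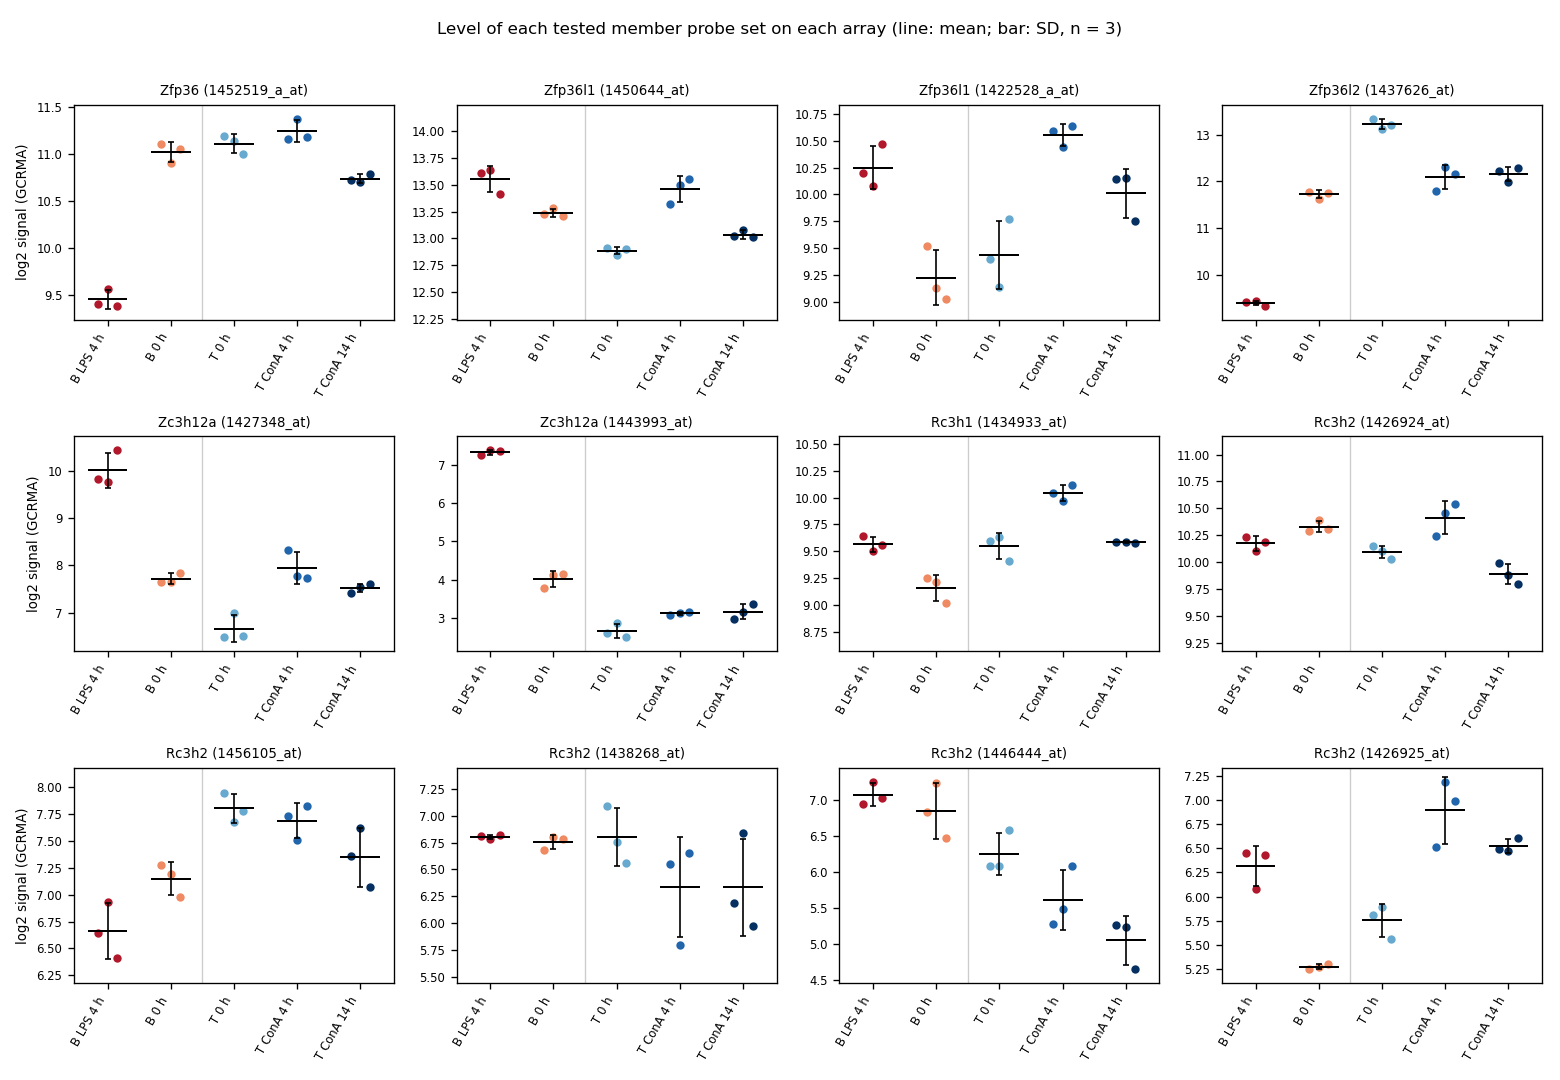
Log2 signal of each of the 12 tested probe sets (1 panel each, vertical axis) on the 15 arrays, by group along the horizontal axis, with points for arrays, a line for the mean and a bar for the SD (n = 3). The 3 LPS arrays sit far below every other array for Zfp36 and Zfp36l2 and far above every other array for both Zc3h12a probe sets, while the 5 Rc3h2 panels show different orders of the groups.

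Zfp36 (tristetraprolin; probe set 1452519_a_at; chr7:28376784-28379228, GRCm38.p6) is known as an early response gene whose protein destabilises the messages of TNF and other cytokines. It read 9.41, 9.57 and 9.39 on the LPS arrays, against 11.10, 10.90 and 11.05 in B cells at 0 h. The 3 LPS arrays were the lowest of all 15 and did not overlap with any other group. The change was -1.56 ± 0.09 (log2, SE; adjusted p = 1.54e-09), and 13.7% of all tested probe sets fell further.

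In T cells Zfp36 read 11.19, 11.13 and 11.00 at 0 h, 11.16, 11.37 and 11.18 at 4 h, and 10.72, 10.70 and 10.79 at 14 h. The 0 h and 4 h arrays overlapped, and the 14 h arrays lay below both. At 4 h the difference from 0 h was 0.13 ± 0.09 and missed the threshold (adjusted p = 0.198), with a 95% interval of -0.05 to 0.32. At 14 h Zfp36 was 1.29-fold lower than at 0 h (-0.37 ± 0.09, adjusted p = 0.00207) and -0.50 ± 0.09 against 4 h (adjusted p = 0.000373). Its order of levels was T cells at 4 h, T cells at 0 h and B cells at 0 h, which did not differ beyond their spread from neighbour to neighbour, then T cells at 14 h and last B cells after LPS.

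Zfp36l2 (1437626_at; chr17:84183924-84187947) encodes a paralog that, with Zfp36l1, is needed in mice for the quiescent phase of developing lymphocytes. It read 9.41, 9.43 and 9.34 after LPS, against 11.78, 11.63 and 11.76 in B cells at 0 h, and the groups were more than 2 units apart. The fall of -2.33 ± 0.12 (adjusted p = 6.88e-10) was exceeded by 7.8% of all tested probe sets.

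In T cells Zfp36l2 read 13.34, 13.12 and 13.21 at 0 h, 11.80, 12.30 and 12.16 at 4 h, and 12.22, 11.99 and 12.28 at 14 h. Every stimulated T array lay below every resting one, and the 4 h and 14 h arrays overlapped. It was 2.20-fold lower at 4 h (-1.14 ± 0.12, adjusted p = 2.53e-06) and 2.08-fold lower at 14 h (-1.06 ± 0.12, adjusted p = 4.25e-06) than at 0 h, and without the 2 arrays that stood apart in the spike-in these changes were -1.04 and -1.11. Between 14 h and 4 h the difference was 0.08 ± 0.12 (adjusted p = 0.625). Zfp36l2 fell in all 3 comparisons of stimulated with resting cells, of which the 2 in T cells share the 0 h arrays.

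Zfp36l1 (chr12:80107760-80113013) rose after LPS, where both paralogs fell. Its brighter probe set 1450644_at read 13.61, 13.64 and 13.41 after LPS, against 13.23, 13.28 and 13.21 in B cells at 0 h, a rise of 0.32 ± 0.08 (1.24-fold, adjusted p = 0.00237). Its values in T cells were 12.91, 12.85 and 12.90 at 0 h, 13.32, 13.50 and 13.55 at 4 h, and 13.02, 13.08 and 13.01 at 14 h. The 4 h arrays were the highest of the T cells, and no T cell group overlapped with another. The rise at 4 h was 0.57 ± 0.08 (adjusted p = 3.21e-05), while 14 h against 0 h gave 0.15 ± 0.08 (adjusted p = 0.113; called with equal array medians, at 0.23, adjusted p = 0.0145, and in a fit of only the arrays compared, adjusted p = 0.0239) and 14 h against 4 h gave -0.42 ± 0.08 (adjusted p = 0.000689).

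The dimmer probe set of Zfp36l1, 1422528_a_at, rose by 1.02 ± 0.18 after LPS (adjusted p = 0.000129) and by 1.12 ± 0.18 at 4 h of ConA (adjusted p = 9.75e-05). Its group means were 10.25 ± 0.20 after LPS, against 9.22 ± 0.26 in resting B cells, and 9.43 ± 0.31, 10.56 ± 0.10 and 10.02 ± 0.23 in T cells at 0, 4 and 14 h (SD, n = 3). At 14 h it was called higher than at 0 h (0.58 ± 0.18, adjusted p = 0.0105) although 1 array of each group overlapped. Without T 0 h replicate 2 the change was 0.43 and no longer called (adjusted p = 0.054). The call was also lost after cyclic loess (0.42, adjusted p = 0.052) and without the 2 arrays that stood apart in the spike-in (0.43, adjusted p = 0.0613). The pair correlated at r = 0.56 over the 15 arrays, and the dimmer probe set showed the larger changes in each comparison with 0 h.

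Zc3h12a (chr4:125118414-125127881), the RNase that cuts the messages of Il6, Rel and other inflammatory genes, rose in all 3 comparisons with 0 h. Probe set 1427348_at read 9.84, 9.77 and 10.44 after LPS, against 7.65, 7.65 and 7.85 in B cells at 0 h. The LPS arrays were the highest of all 15, and the rise of 2.30 ± 0.20 (adjusted p = 1.62e-07) was exceeded by 5.4% of all tested probe sets. LPS replicate 3 gave the highest value, and without it the rise was 2.09.

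In T cells this probe set read 6.48, 6.99 and 6.50 at 0 h, 8.33, 7.77 and 7.73 at 4 h, and 7.42, 7.54 and 7.60 at 14 h. All stimulated T arrays were above all resting ones. The rise was 2.44-fold at 4 h (1.29 ± 0.20, adjusted p = 9.09e-05, and 1.26 without the 2 arrays named above) and 1.82-fold at 14 h (0.87 ± 0.20, adjusted p = 0.00182, and 1.03 without them). The step from 4 h to 14 h, -0.42 ± 0.20, missed the threshold (adjusted p = 0.102). Levels ran from B cells after LPS, through T cells at 4 h, B cells at 0 h and T cells at 14 h, which did not differ from neighbour to neighbour, to T cells at 0 h.

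A second probe set of Zc3h12a, 1443993_at, read 7.26, 7.38 and 7.36 after LPS, against 3.79, 4.12 and 4.16 in B cells at 0 h. It passed the filter on low values only through the LPS arrays, and its T cell values of 2.50 to 3.36 lay near the floor. Its differences from 0 h, 3.31 after LPS, 0.47 after ConA for 4 h and 0.51 for 14 h, are therefore given as a description, although counts of called probe sets include it.

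Rc3h1 (1434933_at; chr1:160906411-160974976), whose sanroque mutation in mice is known for lupus-like disease and excess follicular helper T cells, rose modestly after 4 h of either stimulus. It read 9.64, 9.50 and 9.56 after LPS, against 9.25, 9.21 and 9.02 in B cells at 0 h (0.40 ± 0.08, 1.32-fold, adjusted p = 0.000491). In T cells it read 9.60, 9.63 and 9.41 at 0 h, 10.04, 9.97 and 10.12 at 4 h, and 9.59, 9.59 and 9.58 at 14 h. The 4 h arrays were above all others, and the 14 h arrays lay within the range of those at 0 h. The rise at 4 h was 0.50 ± 0.08 (1.41-fold, adjusted p = 0.000147), 14 h against 0 h gave 0.04 ± 0.08 (adjusted p = 0.702), and 14 h against 4 h gave -0.46 ± 0.08 (adjusted p = 0.000483).

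Rc3h2 (chr2:37368861-37424370), the paralog that can stand in for Rc3h1 in mice, gave no single answer. Its brightest probe set, 1426924_at, read 10.23, 10.10 and 10.19 after LPS, against 10.29, 10.39 and 10.31 in B cells at 0 h (-0.16 ± 0.08, adjusted p = 0.102, 95% interval -0.34 to 0.02). It was called lower after quantile normalization (-0.27, adjusted p = 0.0081) and after cyclic loess (-0.33, adjusted p = 0.00187). In T cells it read 10.15, 10.10 and 10.03 at 0 h, 10.24, 10.46 and 10.54 at 4 h, and 9.99, 9.88 and 9.80 at 14 h. The 4 h arrays were the highest of the T cells and the 14 h arrays the lowest, with changes from 0 h of 0.32 ± 0.08 at 4 h (adjusted p = 0.00479) and -0.20 ± 0.08 at 14 h (adjusted p = 0.0463). The 4 h call was lost after cyclic loess (0.19, adjusted p = 0.0559). The 14 h call was lost with equal array medians (-0.12, adjusted p = 0.186), with the replicate number as a block (-0.20, adjusted p = 0.0729) and with all probe sets tested (adjusted p = 0.0659), and also without T 0 h replicate 1 (-0.18) or 2 (-0.20) and without T ConA 14 h replicate 2 (-0.20) or 3 (-0.16).

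The other 4 tested probe sets of Rc3h2 disagreed with it and with each other, with pairwise r from -0.56 to 0.61 over the 15 arrays. Probe set 1426925_at rose in each comparison with 0 h, by 1.05 ± 0.15 after LPS (adjusted p = 3.22e-05), 1.14 ± 0.15 at 4 h (adjusted p = 2.7e-05) and 0.77 ± 0.15 at 14 h (adjusted p = 0.000667). By contrast 1446444_at fell in T cells, by -0.64 ± 0.25 at 4 h (adjusted p = 0.0400) and -1.20 ± 0.25 at 14 h (adjusted p = 0.000802), and the 4 h call was lost without the 2 arrays named above (-0.55, adjusted p = 0.138). Probe set 1456105_at fell after LPS (-0.49 ± 0.16, adjusted p = 0.013) and at 14 h (-0.46 ± 0.16, adjusted p = 0.0218), and 1438268_at passed in none of the 3. The call of 1456105_at was lost after LPS without B 0 h replicate 1 (-0.42) or LPS replicate 3 (-0.36), and at 14 h without T 0 h replicate 1 (-0.38) or T ConA 14 h replicate 3 (-0.32). With all probe sets tested its 14 h call was lost as well (adjusted p = 0.0667). That of 1446444_at at 4 h was also lost without T 0 h replicate 3 (-0.47) or without T ConA 4 h replicate 1 (-0.47) or 2 (-0.57). It was lost too with the replicate number as a block (adjusted p = 0.0551), with only the arrays compared (adjusted p = 0.0871) and with all probe sets tested (adjusted p = 0.126). Probe set 1438268_at was called at 14 h without T ConA 14 h replicate 2 (-0.72). Which part of the transcript each probe set measures was not analysed here.

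**Figure D2:**
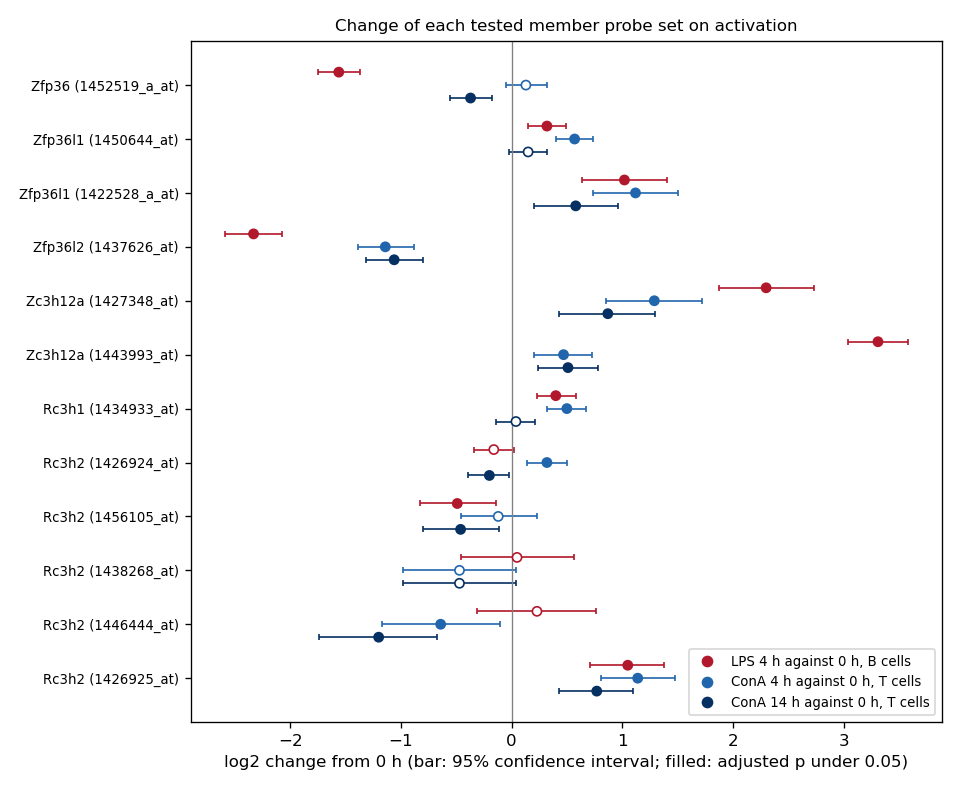
Change from 0 h of each of the 12 tested probe sets (vertical axis) as log2 change (horizontal axis) after LPS 4 h in B cells and ConA 4 h and 14 h in T cells, with 95% confidence intervals and filled points for adjusted p under 0.05. Zfp36l2 lies left of 0 and Zc3h12a right of 0 in all 3 comparisons, with the LPS points farthest out, and Zfp36 is well left of 0 after LPS only.

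Over the T cell time course 9 of the 12 probe sets changed at 4 h (7 higher and 2 lower, median 0.40 against 0.01 over all tested), beside 61.1% of all probe sets (31.5% higher and 29.6% lower). At 14 h 9 changed as well, beside 65.3% of all (31.7% higher and 33.7% lower), with 4 higher and 5 lower (median -0.08 against -0.00), and after array medians were set equal the split was 5 higher and 4 lower. Between 4 h and 14 h 5 changed and all of them were lower at 14 h (median -0.42 against -0.01), where 47.1% of all probe sets changed, 21.4% higher and 25.7% lower. The 5 were Zfp36, both Zfp36l1 probe sets, Rc3h1 and the brightest of Rc3h2. For the dimmer Zfp36l1 probe set, at -0.54, the call was lost without T ConA 4 h replicate 1 (-0.53) or 3 (-0.50) or T ConA 14 h replicate 3 (-0.41), while without T ConA 4 h replicate 1 the Rc3h2 probe sets 1426925_at (-0.57) and 1446444_at (-0.74) were called too, as was 1456105_at (-0.47) without T ConA 14 h replicate 2. The comparisons at 4 h and 14 h share the 0 h arrays, and those with 14 h share the 14 h arrays.

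The B and T cell responses were set against each other by the interaction, the LPS change in B cells minus the 4 h ConA change in T cells. It was called for 6 of the 12 probe sets, 3 higher (with 1443993_at of Zc3h12a among them) and 3 lower, beside 61.9% of all probe sets (31% higher and 30.9% lower). The response of Zfp36 was lower in B cells by -1.69 ± 0.12 (adjusted p = 6.61e-08) and that of Zfp36l2 by -1.19 ± 0.17 (adjusted p = 4.07e-05), while the response of Zc3h12a was greater by 1.02 ± 0.28 (adjusted p = 0.00686). Rc3h1 responded by 0.40 in B cells and 0.50 in T cells, a difference of -0.09 ± 0.11 that missed the threshold (adjusted p = 0.508). For the brighter Zfp36l1 probe set the difference was -0.25 ± 0.11 (adjusted p = 0.0634), so the miss depended on the processing. It was called without B LPS 4 h replicate 2 (-0.30, adjusted p = 0.0444) or T ConA 4 h replicate 1 (-0.32, adjusted p = 0.0161). Quantile normalization (-0.32, adjusted p = 0.0264) and cyclic loess (-0.28, adjusted p = 0.0406) also gave a call. So did an intensity trend with robust prior (adjusted p = 0.0235) and leaving out the 2 arrays that stood apart in the spike-in (-0.30, adjusted p = 0.0293). Cell type and stimulus change together here and cannot be told apart.

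Resting B and T cells already differed. Zfp36l2 was 2.83-fold lower in B than in T cells at 0 h (-1.50 ± 0.12, adjusted p = 8.13e-08), Rc3h1 was lower (-0.38 ± 0.08, adjusted p = 0.000763), and Zc3h12a was 2.08-fold higher (1.06 ± 0.20, adjusted p = 0.000312). The brighter Zfp36l1 probe set was higher (0.35 ± 0.08, adjusted p = 0.00112), and the dimmer one missed the threshold (-0.21 ± 0.18, adjusted p = 0.29). Zfp36 stood at 11.02 ± 0.10 in B cells and 11.11 ± 0.10 in T cells (SD, n = 3), a difference of -0.09 ± 0.09 (adjusted p = 0.371). In total, 9 of 12 probe sets differed, 5 higher and 4 lower, beside 75.5% of all probe sets (30.2% higher and 45.2% lower). Some Rc3h2 calls were lost under alternatives. That of 1446444_at (0.60) was lost with the replicate number as a block (adjusted p = 0.0561) and with all probe sets tested (adjusted p = 0.123). That of 1426925_at (-0.48) was lost after cyclic loess (-0.25, adjusted p = 0.149), and that of 1426924_at (0.24) without B 0 h replicate 2 (0.21).

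After 4 h the distance was larger for Zfp36l2, Zfp36 and Zc3h12a, as the interaction above gives it. B cells with LPS were 6.47-fold lower than T cells with ConA for Zfp36l2 (-2.69 ± 0.12, adjusted p = 1.65e-10), 3.44-fold lower for Zfp36 (-1.78 ± 0.09, adjusted p = 4.32e-10) and 4.21-fold higher for Zc3h12a (2.07 ± 0.20, adjusted p = 5.37e-07). Of the 12 probe sets 9 differed, 3 higher and 6 lower, beside 75.8% of all (32.6% higher and 43.2% lower), and 5 were higher and 4 lower after cyclic loess. The Rc3h2 calls of 1426924_at (-0.24) and 1426925_at (-0.58) were lost after cyclic loess (adjusted p = 0.259 and 0.076). There 1438268_at and the brighter Zfp36l1 probe set became called (adjusted p = 0.00834 and 0.0317). Setting array medians equal moved the median difference over all probe sets up by 0.14 at 0 h and 0.16 at 4 h, and the small difference of Zfp36 at 0 h turned its sign with it.

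The rest of the decay machinery is described with 1 probe set a gene, the brightest, over 9044 tested genes. Deadenylases went both ways after LPS, with 5 of 13 higher and 6 lower (median -0.14 against -0.05 over all genes), beside 79.1% of all genes changed, 37.2% higher and 41.9% lower. Cnot11 (1.17 ± 0.10) and Cnot4 (0.98 ± 0.10), both subunits of or partners to CCR4-NOT, rose, and the catalytic Cnot8 fell (-0.68 ± 0.08). In T cells 4 rose and 4 fell at 4 h, beside 64.9% of all genes (32.9% higher and 32% lower), and 2 rose and 5 fell at 14 h, beside 67.3% (36% higher and 31.3% lower). Pan2, the catalytic subunit of a second deadenylase, fell by -1.24 ± 0.08 at 14 h and its partner Pan3 by -0.86 ± 0.09. Of the 2 related catalytic subunits Cnot6 and Cnot6l, Cnot6 fell after LPS (-0.55 ± 0.08) and rose at 4 h of ConA (0.47 ± 0.08), and Cnot6l did the reverse (0.48 ± 0.10 and -0.52 ± 0.10).

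After LPS most genes of the machineries that degrade a deadenylated message rose. Of 14 tested genes of the RNA exosome and its Ski complex 12 rose and 1 fell (median 1.14), beside 79.1% of all genes called and 37.2% higher. The exosome nuclease Dis3 read 10.52, 10.49 and 10.73 after LPS, against 7.79, 7.84 and 7.75 in B cells at 0 h, with no overlap and a rise of 2.79 ± 0.12 (adjusted p = 8.61e-11). Exosc2 rose by 2.14 ± 0.17 and Exosc1 by 1.92 ± 0.07, and Dis3l, the nuclease of the cytoplasmic exosome, fell (-0.63 ± 0.25). In T cells 11 rose and 1 fell both at 4 h and at 14 h (median 0.45 each time), beside 32.9% and 36% of all genes higher, with Dis3 at 1.62 ± 0.12 and 1.61 ± 0.12. The gene that fell was Dis3l at 4 h (-0.69 ± 0.25) and the helicase gene Skiv2l at 14 h (-0.42 ± 0.07).

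Of 15 tested genes of decapping and 5′ to 3′ decay 14 rose after LPS (median 0.38, beside 37.2% of all genes higher). Among them were Lsm2 (1.85 ± 0.20), Patl1 (1.68 ± 0.15) and Lsm7 (1.11 ± 0.11), which act in the complex that binds shortened tails. In T cells 7 rose and 1 fell at 4 h, and 8 rose and 4 fell at 14 h, beside 64.9% and 67.3% of all genes called. The helicase Ddx6, a partner of decapping, fell by -0.47 ± 0.08 at 4 h and -0.89 ± 0.08 at 14 h, and the exonuclease Xrn1 by -0.75 ± 0.25 at 14 h. The LPS response exceeded the ConA response in 8 of 15 decapping genes and in 9 of 14 exosome genes, and fell short of it in 1 and 0. Over all genes 64.8% were called in that test, 30.7% with the greater response in B cells and 34.1% with the lesser. Of 7 genes of nonsense-mediated decay 4 rose and 2 fell after LPS, 3 rose and 2 fell at 4 h of ConA, and 0 rose and 3 fell at 14 h. Beside them 79.1%, 64.9% and 67.3% of all genes were called. The kinase Smg1 was lower each time (-0.49 ± 0.08, -0.45 ± 0.08 and -0.87 ± 0.08). The 5 of 7 called at 4 h of ConA became 3 without T 0 h replicate 1, 2 without T 0 h replicate 3 and 3 without T ConA 4 h replicate 1 or replicate 3, and 1 in a fit of only the arrays compared or with all probe sets tested.

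**Figure D3:**
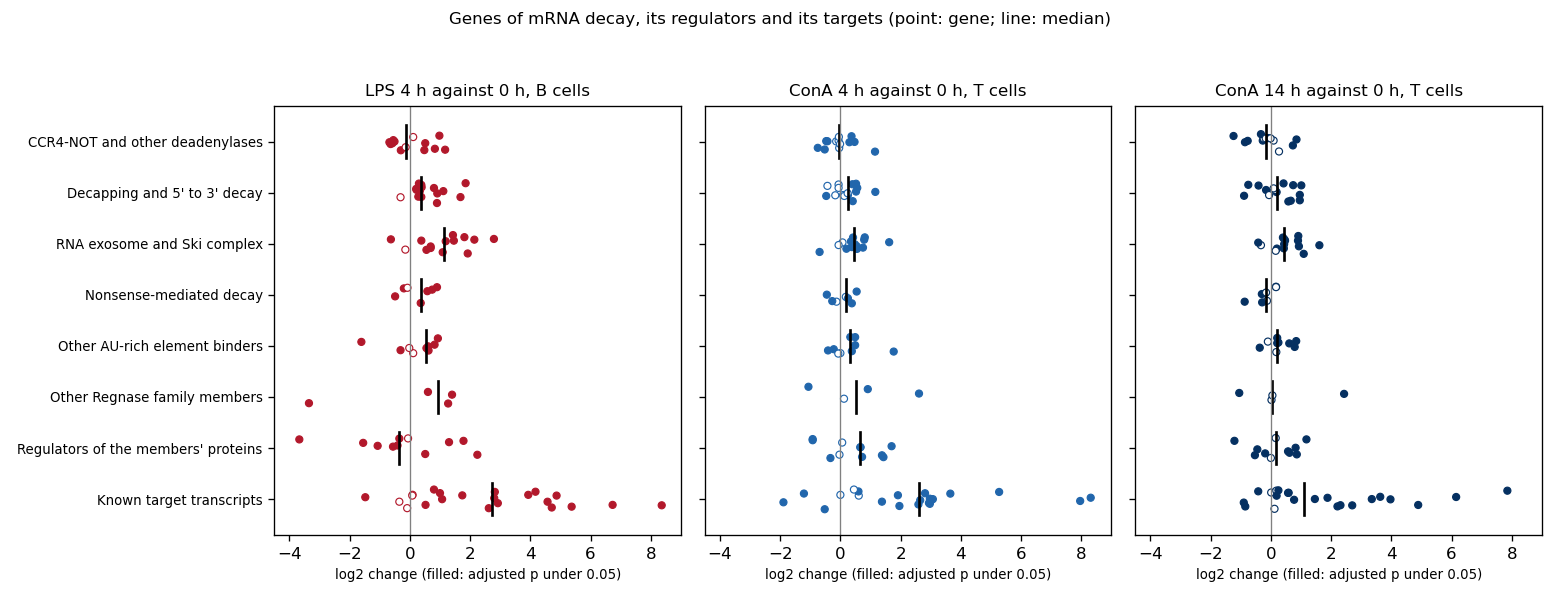
Log2 change from 0 h (horizontal axis) of each tested gene in 8 lists (rows) after LPS 4 h in B cells and ConA 4 h and 14 h in T cells (panels), with filled points for adjusted p under 0.05 and a line at each list's median. The target list reaches farthest to the right in each panel, with medians of 2.71, 2.62 and 1.12, and the exosome list sits at 1.14 after LPS and 0.45 at both ConA times. Some targets passed the filter only where they are high, with resting levels near the floor, so the target medians are a description.

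Relatives of Zc3h12a moved in several ways. Zc3h12d (Regnase-4) read 5.60, 4.78 and 5.57 after LPS, against 8.65, 8.65 and 8.69 in B cells at 0 h. In T cells it read 8.01, 7.82 and 7.86 at 0 h, 10.42, 10.60 and 10.49 at 4 h, and 10.36, 10.42 and 10.20 at 14 h. It was thus lowest in LPS-treated B cells and highest in stimulated T cells, with no overlap between stimulated and resting arrays. The changes were -3.35 ± 0.17 after LPS (adjusted p = 6.32e-10) and 2.61 ± 0.17 at 4 h of ConA (adjusted p = 2.58e-08), and the difference between these responses was -5.95 ± 0.24 (adjusted p = 2.06e-10).

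Zc3h12c (Regnase-3) read 8.89, 8.89 and 8.86 after LPS, against 7.61, 7.59 and 7.23 in B cells at 0 h (1.40 ± 0.10, adjusted p = 1.36e-08), and lay near the floor on all T arrays, at 2.44 to 2.76. N4bp1, a related RNase that Malt1 is known to cleave, rose after LPS (1.27 ± 0.12) and at 4 h of ConA (0.91 ± 0.12) and stood at 0.05 ± 0.12 at 14 h (adjusted p = 0.764). Khnyn rose after LPS (0.60 ± 0.08) and fell after ConA (-1.06 ± 0.08 at 4 h, -1.05 ± 0.08 at 14 h).

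Among genes whose products regulate these proteins, Malt1 and Bcl10 moved in opposite directions in the stimulated B and T cells. Malt1, the protease known to cleave Regnase-1 and Roquin in stimulated T cells, read 10.34, 10.31 and 10.13 after LPS, against 11.76, 11.81 and 11.86 in B cells at 0 h. In T cells it read 10.24, 10.49 and 10.35 at 0 h, 11.78, 11.73 and 11.71 at 4 h, and 11.22, 11.19 and 11.13 at 14 h. LPS arrays lay below and ConA arrays above their resting cells, with changes of -1.55 ± 0.08 and, at 4 h, 1.38 ± 0.08, and a difference between responses of -2.93 ± 0.11 (adjusted p = 1.13e-10). Its partner Bcl10 changed by -0.56 ± 0.11 after LPS and 0.66 ± 0.11 at 4 h of ConA.

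Mapk14, the p38 kinase whose pathway inactivates tristetraprolin, read 6.76, 6.50 and 6.76 after LPS, against 10.37, 10.35 and 10.32 in B cells at 0 h, a fall of -3.67 ± 0.08 (adjusted p = 3.16e-13). After ConA it fell by -0.92 ± 0.08 at 4 h and by -0.45 ± 0.08 at 14 h. Dusp1, the phosphatase that switches p38 off, rose by 2.24 ± 0.09 after LPS and stood at -0.03 ± 0.09 at 4 h of ConA (adjusted p = 0.775). Its 3 LPS arrays read 9.53, 9.70 and 9.57, against 7.45, 7.46 and 7.16 in B cells at 0 h. In T cells Dusp1 read 10.33, 10.21 and 10.18 at 0 h, 10.23, 10.19 and 10.21 at 4 h, and 9.71, 9.66 and 9.76 at 14 h. The kinases downstream of p38 rose after both stimuli, Mapkapk3 by 1.78 ± 0.26 and 1.70 ± 0.26 and Mapkapk2 by 0.51 ± 0.09 and 1.43 ± 0.09 (LPS, then ConA 4 h). Of the 11 tested regulators 4 rose and 6 fell after LPS, 6 rose and 3 fell at 4 h of ConA, and 5 rose and 4 fell at 14 h, beside 79.1%, 64.9% and 67.3% of all genes called, with Ikbkb, a kinase that marks Regnase-1 for degradation, lower at 14 h (-1.21 ± 0.07).

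**Figure D4:**
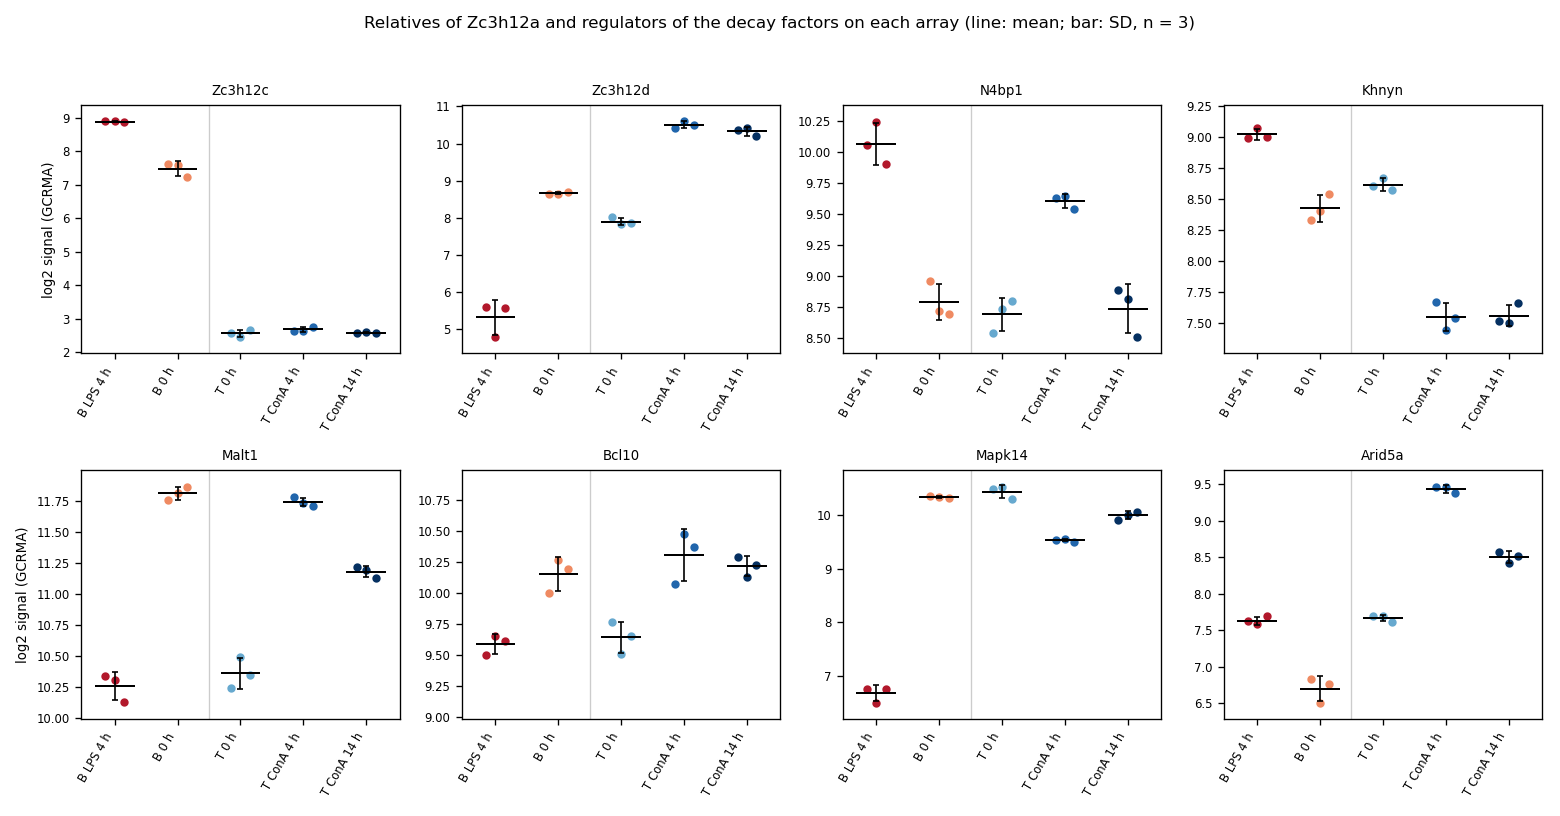
Log2 signal (vertical axis) of 4 relatives of Zc3h12a and 4 regulators of the decay factors on each of the 15 arrays, by group, with a line for the mean and a bar for the SD (n = 3). Zc3h12d, Malt1 and Bcl10 are lower after LPS in B cells and higher after ConA in T cells, Zc3h12c is near the floor in T cells, and Mapk14 is lowest after LPS.

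A list of 9 other RNA-binding proteins held binders of AU-rich elements and of other sequences. Of these 9 genes 5 were higher and 2 lower after LPS and again at 4 h of ConA. At 14 h 6 were higher and 1 lower (3 and 1 after quantile normalization). Beside them 79.1%, 64.9% and 67.3% of all genes were called, so the share after LPS was that of the array as a whole. Arid5a, known to protect Il6 messages from Regnase-1, rose by 0.93 ± 0.08 after LPS, 1.77 ± 0.08 at 4 h and 0.84 ± 0.08 at 14 h. The stabilising Elavl1 (HuR) rose by 0.55 ± 0.06, 0.49 ± 0.06 and 0.61 ± 0.06 in the same order, and the translational silencer Tia1 fell by -1.61 ± 0.09, -0.41 ± 0.09 and -0.37 ± 0.09.

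Messages known as targets of the 6 factors were mostly higher in stimulated cells. Of 22 tested, 17 rose and 1 fell after LPS (median 2.71), 16 rose and 3 fell at 4 h of ConA (median 2.62) and 16 rose and 3 fell at 14 h (median 1.12). Beside them 37.2%, 32.9% and 36% of all genes were higher. Some targets passed the filter only where they are high, so these counts and medians are a description. Il6 read 10.60 to 10.66 after LPS, against 2.24 to 2.34 in B cells at 0 h, and Cxcl2 read 7.55 to 7.69 against 2.24, so both are set against the floor and no size is given. Il1b rose by 6.73 ± 0.15 after LPS. In T cells Irf4, a transcription factor of activated lymphocytes, read 4.20 to 5.19 at 0 h, 13.05 to 13.25 at 4 h and 12.57 to 12.77 at 14 h. Il6 read 3.54 to 3.73, 11.49 to 11.64 and 8.43 to 8.56 at these times, and Il2, the growth factor of T cells, 3.11 to 3.43, 8.43 to 8.77 and 9.32 to 9.51. For each of these 3 genes all stimulated T arrays lay far above the resting ones. Levels of RNA do not separate synthesis from decay, and no decay rate was measured here.

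The LPS response exceeded the ConA response at 4 h in 12 of the 22 targets and fell short of it in 8. Beside them 64.8% of all genes were called, 30.7% with the greater response in B cells and 34.1% with the lesser. Some targets lay near the floor on all arrays of a cell type, such as Il2 in B cells (2.96 to 3.33), so these counts are a description. Tnf, the classic tristetraprolin target, read 7.43, 7.20 and 7.43 after LPS, against 6.33, 6.54 and 6.20 in B cells at 0 h (1.00 ± 0.12). In resting T cells it read 6.62, 6.50 and 6.29, with 9.30, 9.64 and 9.48 after 4 h and 8.68, 8.88 and 8.79 after 14 h of ConA (adjusted p = 2.51e-10 and 3.23e-09 against rest). All stimulated arrays lay above the resting ones in both cell types, and the LPS response was lower than the ConA response at 4 h by -2.00 ± 0.17 (adjusted p = 3.48e-07). The Roquin targets Icos and Tnfrsf4, both costimulatory receptors, rose by 2.97 ± 0.24 and 2.81 ± 0.15 at 4 h of ConA, while in B cells Icos lay near the floor, at 2.34 to 3.63. The Regnase-1 targets Nfkbiz and Rel rose by 3.93 ± 0.08 and 2.82 ± 0.16 after LPS and by 0.60 ± 0.08 and 3.07 ± 0.16 at 4 h of ConA. The cyclin genes Ccnd3 and Ccnd2, targets of the tristetraprolin family in mouse lymphocytes, parted after LPS, with Ccnd3 at -1.48 ± 0.08 and Ccnd2 at 4.57 ± 0.08. The 1 target that fell after LPS was Ccnd3, and those that fell at 4 h of ConA were Ccnd3 (-1.89 ± 0.08), Ccne2 (-1.21 ± 0.17) and Ccnd2 (-0.52 ± 0.08).

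The genes most like each factor over the 15 arrays were named by Pearson's r among 7567 genes, as a description, since points share the same 5 groups. Zfp36l2 was followed most closely by Il27ra and Rbms1 (r = 0.993 each) and Cnst (r = 0.992), and Zfp36 by Cyfip2 (r = 0.989), Retreg1 and Marchf6 (r = 0.987 each). Zc3h12a was closest to Gsdme (r = 0.987), Pkmyt1 (r = 0.975) and Gdap10 (r = 0.974), and Rc3h1 to Mmd (r = 0.974), Tmem267 and Sik3 (r = 0.968 each). For Zfp36l1 the nearest genes were Fxr2 (r = 0.944), P2ry10 (r = 0.940) and Gpr183 (r = 0.918). Rc3h2, by its brightest probe set, was nearest to Ubl3 (r = 0.941), Tmppe (r = 0.907) and the Y-linked Uty (r = 0.902).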

How the data were processed

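RNA (100 ng) was labelled with biotin by a 3′ kit and hybridised to Affymetrix mouse arrays, per the labels' protocols. The authors deposited log2 signals computed by GCRMA, which corrects for background and normalizes across arrays, as the submitters' processing notes name it, and a version was not given in the sources used here. Such values have a floor at 2.24, where 39.2% of them lie, so changes of dim probe sets are compressed. No depth applies to arrays, and 3 per group limit the precision.

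Of 45101 probe sets 64 were controls. Genes were named from the platform's annotation where a probe set had 1 symbol (34945 probe sets; 932 had several and 9160 none), and coordinates come from RefSeq (GRCm38.p6). One mean per group was fitted over the 15 arrays with limma 3.58.1 in R 4.3.3 (10 residual and 2.63 prior degrees of freedom) for probe sets with a highest group mean of at least 5. P-values were adjusted by Benjamini-Hochberg over the 19124 tested. Folds are 2 to the power of the log2 change, and intervals are at 95%. The fit was tried on simulated data with independent noise and few changed probe sets. These data differ in both, so that trial does not measure the error rate here.

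All probe sets of the 6 genes are described. In the 8 lists each gene stands for its brightest probe set (9044 of 18193 genes tested), up to 3 called genes with the largest change are named per list and comparison, and others where their role ties them to a factor. Listed genes without such a probe set were not analysed here. The 3 genes most like each factor were sought among genes with a highest group mean of at least 7. The 6 genes, the lists and the tests were chosen with earlier results of these data known. Lists were counted, not tested as sets. Alternatives tried were other filters, scalings, variance priors and subsets of arrays, a replicate block and each array left out. Replicate numbers are shared by the groups, but whether they pair the arrays is not known.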

Additional observations from a re-analysis of the deposited data

Results flagged for a closer look

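The response to LPS in B cells differed from the 4 h response to ConA in T cells for 6 of the 12 tested probe sets, by a test of the difference itself (limma, adjusted over all probe sets). For Zfp36 the difference was -1.69 ± 0.12 (log2, SE; adjusted p = 6.61e-08), with a change of -1.56 in B cells and 0.13 in T cells. For Zfp36l2 it was -1.19 ± 0.17 (adjusted p = 4.07e-05), with changes of -2.33 in B cells and -1.14 in T cells. Zc3h12a gave 1.02 ± 0.28 on probe set 1427348_at (adjusted p = 0.00686) and 2.84 on 1443993_at. That probe set passed the filter on low values only through the LPS arrays and lies near the floor in T cells, so its difference is a description and supports nothing. Rc3h2 gave -0.48 ± 0.12 on 1426924_at (adjusted p = 0.00332) and 0.86 ± 0.35 on 1446444_at (adjusted p = 0.0466), which are opposite in sign. The call of 1446444_at was lost without B 0 h replicate 1 (0.86) or 3 (0.68), any one LPS array (0.77 to 0.93), T 0 h replicate 3 (0.70) or T ConA 4 h replicate 1 (0.69) or 2 (0.80). It was lost too with the replicate number as a block (adjusted p = 0.0628) and with all probe sets tested (adjusted p = 0.14). The same held without the 2 arrays that stood apart in the spike-in (0.78, adjusted p = 0.1). Cell type and stimulus cannot be told apart in these differences.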

How the results depend on the processing

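No call for Zfp36, Zfp36l2, Zc3h12a, Rc3h1 or the brighter Zfp36l1 probe set was lost under any alternative in which that probe set was tested, and no called change of the 12 probe sets turned its sign. Over all alternatives, 835 values of called changes stayed called and 58 lost their call, all on Rc3h2 probe sets or on 1422528_a_at of Zfp36l1. Where the mean over all arrays had to reach 5, 1443993_at of Zc3h12a was not tested, and 8, 8, 8, 5, 8, 8 and 5 of the other 11 probe sets were called, in the order of comparisons given below. Of values that were not called, 413 stayed so with the same sign, 22 became called and 27 turned their sign. With 1 probe set per gene there were fewer features by construction, with 5 of the 6 called after LPS, 5 at ConA 4 h, 4 at ConA 14 h, 5 for resting and 5 for stimulated B against T cells, and 7224, 5961, 6190, 6927 and 7053 genes called in all, 4426 for 14 h against 4 h and 5981 for the interaction.

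Signs that turned, all small and not called, were as follows, and the cause was not tested. After cyclic loess Zfp36 at ConA 4 h read -0.01 and Rc3h1 at 14 h -0.10. For B against T cells at 0 h, Zfp36 read 0.05 with equal array medians and 0.09 after cyclic loess, and 1438268_at of Rc3h2 read 0.09, 0.07 after quantile normalization and 0.20 after cyclic loess. For 14 h against 4 h that probe set read 0.05, 0.14 and 0.07 under the same 3 scalings and 0.11 without the 2 arrays that stood apart in the spike-in, and Zfp36l2 then read -0.06. For the interaction 1422528_a_at read 0.06 without these arrays and 1426925_at read 0.09 after quantile normalization. With each array left out in turn, Rc3h1 at 14 h ranged from -0.03 to 0.08, and for 14 h against 4 h Zfp36l2 ranged from -0.06 to 0.19, 1438268_at from -0.27 to 0.18 and 1443993_at from -0.05 to 0.13. In the same way 1438268_at ranged from -0.17 to 0.10 for resting B against resting T cells, and for the interaction 1422528_a_at ranged from -0.27 to 0.05 and 1426925_at from -0.29 to 0.05.

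With the replicate number as a block, 9, 8, 8, 5, 8, 9 and 5 of the 12 probe sets were called (LPS, ConA 4 h, ConA 14 h, 14 h against 4 h, resting B against resting T, stimulated B against stimulated T, interaction), against 9, 9, 9, 5, 9, 9 and 6 without it. Same-numbered arrays deviated from their group means with r between -0.61 and 0.34. Across numbers, T 0 h replicate 2 and T ConA 4 h replicate 1, the 2 arrays that stood apart in the spike-in, reached 0.70. These values therefore cannot decide whether the numbers pair the arrays, which the labels do not say. Leaving out single arrays gave 8 to 9, 8 to 9, 7 to 9, 4 to 6, 7 to 9, 8 to 9 and 5 to 6 called. Signals near the floor limit what can be read from 1443993_at in T cells and from the 4 probe sets that were not tested. The counts over the lists were repeated under every alternative, with each array left out included, a check added after seeing the data. Of these 936 counts 914 stayed within 1.5 times those given and 22 moved further.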
